A study of Mus musculus with 4 samples.

Results

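The retinoid cycle genes of the neural retina were taken as the 9 genes Rdh8, Rdh10, Rdh11, Rdh12, Rdh14, Rbp3, Rlbp1, Abca4 and Dhrs3, matched by symbol, and all 9 were among the 43280 genes of the table. All 9 also passed the filter on low values, a normalized count of at least 10 in at least 2 libraries, which left 18127 genes to test. Messenger RNA was sequenced from dissected retinas of wildtype mice, of the strain written C6/BL6J in the labels, in 2 libraries of streptozotocin (STZ) treated mice and 2 of citrate controls. STZ, which kills the beta cells that make insulin, had been given at 50 mg/kg on each of 5 days from 6 weeks of age, and hyperglycaemia above 25 mM was checked 10 days later. Control mice received citrate buffer, and retinas of both groups were taken at 18 weeks of age. Libraries are named by group and by the tag of their column, 2L or 4R. Whether the 2 libraries of a group are from different mice is not stated, so the p-values speak of the spread between these libraries, which may be technical. That spread is estimated partly from other genes of similar level.

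Vision starts when light turns the 11-cis-retinal bound in an opsin into all-trans-retinal, and the retinoid cycle turns it back. In photoreceptor outer segments the transporter ABCA4 moves retinal across disc membranes and retinol dehydrogenases reduce it to retinol. Retinol then travels through the matrix between the cells, carried by IRBP (the product of Rbp3), to the pigment epithelium, where LRAT, RPE65 and RDH5 rebuild 11-cis-retinal. Müller glia hold the binding protein CRALBP (Rlbp1) and take part in another route that serves cones. Mutations of RDH12, RLBP1, ABCA4 and RBP3 cause inherited retinal disease in humans.

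Reads assigned to genes numbered 33166680 for STZ 2L and 39299653 for STZ 4R, against 29352330 for control 2L and 31973786 for control 4R. All 18 rod markers and all 12 Müller glia markers were detected, as in retina. Summed lens markers reached 3104745 normalized counts in STZ 2L and between 742 and 5800 in the other libraries. Summed cornea markers, none of the 12 at 0 in all libraries, were 14517 and 12034 in STZ 2L and STZ 4R, against 2180 and 1009 in control 2L and control 4R. Summed pigment epithelium markers stood apart in control 2L, at 2370, against 11095 in STZ 2L, 6883 in STZ 4R and 10173 in control 4R. The part of this tissue makeup in the results below was not tested.

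Levels differed widely among the 9 genes, and their order held across libraries. On the scale of normalized counts per kilobase of annotated exon, which allows levels of different genes to be compared, Rbp3 was highest at 51829 and 58324 in STZ 2L and STZ 4R, against 59234 and 54650 in control 2L and control 4R. Rdh12 followed, between 8492 and 12469 per kilobase over the 4 libraries, then Abca4 (7255 to 9134) and Rlbp1 (5924 to 6860). Rdh8 lay between 1807 and 2090, Dhrs3 between 1110 and 1358 and Rdh11 between 469 and 553. At the low end Rdh10 spanned 259 to 377 and Rdh14 242 to 377. The first 7 places were the same in every library, while Rdh10 and Rdh14 changed places in control 4R. Ranges over libraries overlapped for Rdh12 and Abca4 and for Rdh10 and Rdh14, and for no other neighbours in this order. The 9 genes together made up 1.04% of the STZ 2L reads (exact Clopper-Pearson bounds at 95%, for counting error alone, of 1.035 and 1.042) and 1.28% of the STZ 4R reads (1.275 and 1.282), against 1.23% of the reads of control 2L (1.225 and 1.233) and 1.22% of those of control 4R (1.217 and 1.225). Rbp3 alone made up 0.784% and 0.950% of reads in STZ 2L and STZ 4R, against 0.940% and 0.900% in control 2L and control 4R. The STZ 2L total includes that library's lens reads, and their part in these shares was not tested.

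**Figure D1:**
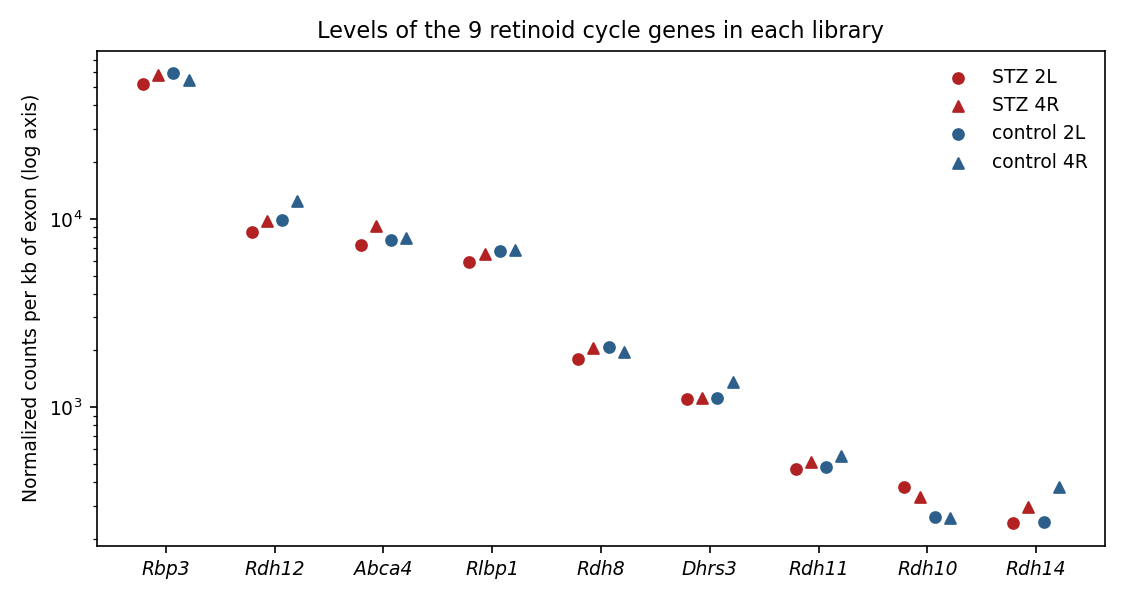
Normalized counts per kilobase of exon (log axis) of the 9 genes, ordered by mean, with 1 point for each library (red STZ, blue control; circles 2L, triangles 4R). Rbp3 lay at 51829 or more in every library and Rdh14 at the bottom between 242 and 377, and Rdh10 is the gene whose STZ points both lie clearly above its control points.

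The 250 bases before the annotated start are shown for the 4 genes with the highest level per kilobase, since these held 97.6% to 97.9% of the normalized counts of the 9 genes in each library. The sequences are RefSeq's on GRCm38.p6, read 5′ to 3′ on the gene's strand. Capitals mark matches to TAATCC, the core bound by the photoreceptor factors CRX and OTX2, which reads GGATTA on the other strand, and to TGCTGA, part of the site of the rod factor NRL, which reads TCAGCA there.
Rbp3, chr14:33953753-33954002, plus strand: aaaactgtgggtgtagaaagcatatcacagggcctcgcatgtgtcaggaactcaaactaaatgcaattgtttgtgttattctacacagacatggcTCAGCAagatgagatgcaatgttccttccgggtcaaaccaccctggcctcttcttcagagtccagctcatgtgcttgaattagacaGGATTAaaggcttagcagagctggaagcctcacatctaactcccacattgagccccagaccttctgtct
Rdh12, chr12:79208663-79208912, plus strand: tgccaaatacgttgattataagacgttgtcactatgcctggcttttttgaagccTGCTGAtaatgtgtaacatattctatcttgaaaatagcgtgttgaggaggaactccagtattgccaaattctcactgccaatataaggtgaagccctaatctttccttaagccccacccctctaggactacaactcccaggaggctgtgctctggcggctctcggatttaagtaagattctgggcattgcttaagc
Abca4, chr3:122044210-122044459, plus strand: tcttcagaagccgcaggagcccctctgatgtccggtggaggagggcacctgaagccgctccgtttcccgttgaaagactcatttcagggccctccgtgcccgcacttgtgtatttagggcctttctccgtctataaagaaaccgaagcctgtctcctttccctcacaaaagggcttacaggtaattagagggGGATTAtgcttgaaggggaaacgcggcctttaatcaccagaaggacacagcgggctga
Rlbp1, chr7:79387028-79387277, minus strand: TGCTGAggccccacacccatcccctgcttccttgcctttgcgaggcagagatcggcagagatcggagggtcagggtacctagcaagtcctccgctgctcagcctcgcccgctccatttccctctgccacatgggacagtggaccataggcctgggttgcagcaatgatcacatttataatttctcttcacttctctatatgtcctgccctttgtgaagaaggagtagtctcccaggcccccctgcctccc
TAATCC, searched on both strands, was found in Rbp3, starting 69 bases before the start site, and in Abca4, starting 58 bases before it, both times on the strand opposite to the gene. Of 32851 promoters searched over the same length, 6.25% held it. TGCTGA was found 155 bases before the Rbp3 start, 196 before that of Rdh12 and at the outer edge of the Rlbp1 window, and in 16.1% of all promoters; no match of either motif overlapped one of the other. Promoters of 8 of the 9 genes were matched by symbol, not that of Rdh10. Among the 4 not shown, Rdh14 held TGCTGA, while Rdh8, Rdh11 and Dhrs3 held neither. A match describes letters, not binding.

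The comparison between hyperglycaemic and control retinas showed small differences for all 9 genes, with Rdh10 the furthest from 0. Rdh10 was 1.36-fold higher in STZ retinas, and the other 8 lay between 0.820-fold (Rdh12) and 1.04-fold (Abca4) of the control level. None of the 9 passed: limma called 0 of 18127 genes in either direction at an adjusted p of 0.05 (0%), with 419 higher and 81 lower at an unadjusted p under 0.05. On recovered reads of the same 18127 genes edgeR and limma-voom called 0 genes and DESeq2 47, among them 0 of the 9, and DESeq2 with no filter on low values called 52, also with 0 of the 9. In the authors' deposited table, 0.281% of 18478 genes were called higher and 0% lower, again with 0 of the 9. At an unadjusted p under 0.05 the count was 1 of 9, Rdh10, which was higher, beside 2.31% of all tested genes higher, 0.447% lower and 2.76% in all. That count was 0 of 9 when libraries were scaled to summed rod markers (limma, unadjusted p of Rdh10 = 0.0663) and without STZ 2L (0.140), control 2L (0.0997) or control 4R (0.111). Groups were free of overlap for 4 of 9, above the controls in Rdh10 and below them in Rdh12, Rlbp1 and Dhrs3, beside 28.7% of all tested genes (14.3% above and 14.3% below). With 2 libraries against 2, an exact two-sided permutation test of a single gene cannot go below 0.333.

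The median log2 fold change of the 9 genes was -0.08, beside -0.01 for all tested genes, and 7 of 9 were below 0, beside 51.1%. That count was 8 after quantile normalization and 4 after scaling each library to its rod markers, either to their sum or to their geometric mean, the second chosen after seeing the data. The geometric mean of the rod markers moved the median of all tested genes to 0.10, so on that scale a log2 fold change near 0.10 is no difference from the typical gene. All log2 fold changes are of STZ over control on the log2(normalized count + 1) scale, with standard errors. The retina was sequenced in bulk, so fewer cells of a type and less RNA per cell cannot be told apart.

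**Figure D2:**
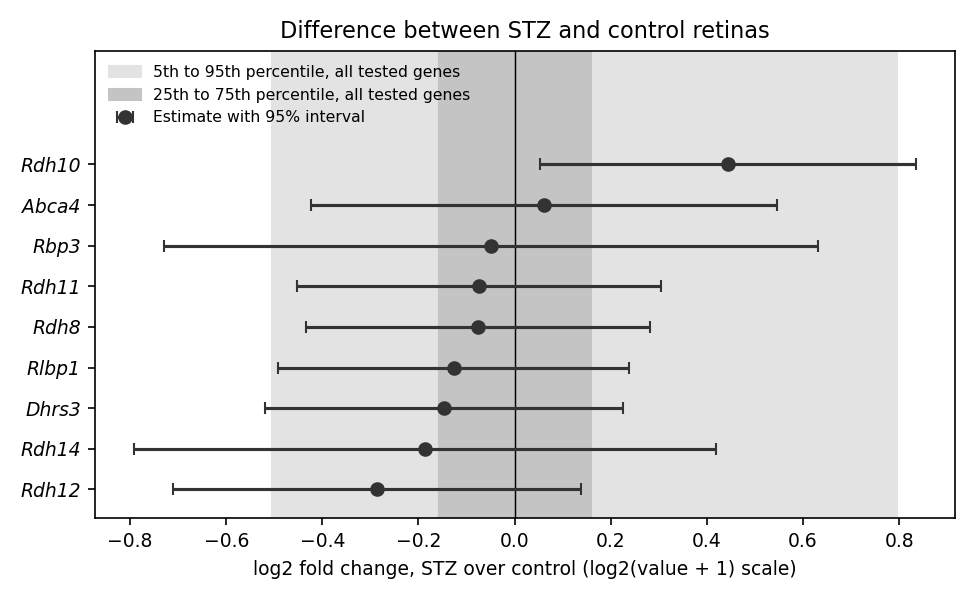
Log2 fold change of STZ over control for each of the 9 genes (points, with 95% intervals from limma), with grey bands for the 25th to 75th and the 5th to 95th percentile of all 18127 tested genes. The Rdh10 interval runs from 0.05 to 0.83 and lies above 0, while the other 8 intervals include 0.

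Rdh10 makes the all-trans-retinol dehydrogenase that carries out the first oxidation step from retinol towards retinoic acid, and in the eye it is found in pigment epithelium and Müller glia. The gene lies on chromosome 1 (16105774 to 16133734, plus strand). It had 1354 and 1193 normalized counts in STZ 2L and STZ 4R, against 939 and 928 in control 2L and control 4R. Both STZ libraries lay above both controls, and the controls were 0.02 apart on the log2 scale while the STZ libraries were 0.18 apart. Its log2 fold change was 0.44 ± 0.17 (limma, adjusted p = 0.999). That was larger than either difference within a group, which held for no other of the 9 genes, and the share of all tested genes was not counted. The fold of 1.36 had a 95% interval of 1.04 to 1.78. By its unadjusted p it ranked 282 of 18127 genes, and 89.9% of the tested genes had a lower log2 fold change. The authors' deposited table gave Rdh10 0.45 on the log2 scale (adjusted p = 1.00). Without STZ 2L, the library with the lens reads, the log2 fold change was 0.35, and without STZ 4R it was 0.54, with an adjusted p in limma between 0.350 and 1.00 over the omissions of 1 library. Without control 2L, the library low in pigment epithelium markers, it was 0.45. Control 2L and control 4R had 117 and 537 normalized counts of Rpe65, and 939 and 928 of Rdh10. The part of pigment epithelium was not tested. Summed Müller glia markers, a list with Vim, Apoe and Clu that lens also makes, were 254293 and 206072 in STZ 2L and STZ 4R, against 202672 and 206122 in control 2L and control 4R, so by the sum STZ 4R overlapped with the controls. Their geometric means were 9510 and 7920 in STZ 2L and STZ 4R, against 7819 and 7661 in control 2L and control 4R. By this measure both STZ libraries were above both controls, as in Rdh10. Of the 12 markers, 7 had a log2 fold change above 0 and 5 below, with a median of 0.08. The part of Müller glia was not tested. All 12 cornea markers were, like Rdh10, higher in both STZ libraries than in both controls, beside 14.3% of all tested genes. Their sums were 14517 and 12034 in STZ 2L and STZ 4R, against 2180 and 1009 in control 2L and control 4R. The part of cornea was not tested.

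The dehydrogenases that reduce all-trans-retinal in photoreceptors were level with the controls or somewhat lower. RDH12, of the photoreceptor inner segment, protects the cell from excess retinal. Rdh12 had 14250 and 16350 normalized counts in STZ 2L and STZ 4R, against 16573 and 20923 in control 2L and control 4R. Both STZ libraries were below both controls, but STZ 4R and control 2L differed by little beside the gap between the controls. The log2 fold change was -0.29 ± 0.18 (limma, adjusted p = 0.999), a fold of 0.820 with a 95% interval of 0.611 to 1.10. Rdh12 stood at -0.12 without control 4R and at -0.45 without control 2L. RDH8 is the outer segment enzyme for the same reaction. Rdh8 (chromosome 9, 20818503 to 20826117) had 2539 and 2887 normalized counts in STZ 2L and STZ 4R, against 2936 and 2772 in control 2L and control 4R. The groups overlapped, with a log2 fold change of -0.08 ± 0.16 and a fold of 0.949 (0.740 to 1.22).

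Rdh11 and Rdh12 lie head to head as neighbours on mouse chromosome 12 of mm10 (79174337 to 79192293 on the minus strand and 79208914 to 79222665 on the plus strand, GENCODE M21). RDH11 and RDH14 are related dehydrogenases with wider tissue distribution. Rdh11 had 1622 and 1763 normalized counts in STZ 2L and STZ 4R, against 1657 and 1912 in control 2L and control 4R, which overlap. Its log2 fold change was -0.07 ± 0.16, a fold of 0.950 (0.731 to 1.23). Rdh14, also on chromosome 12 (10390772 to 10395562, plus strand), was the least expressed by raw level, with 359 and 435 normalized counts in STZ 2L and STZ 4R, against 363 and 557 in control 2L and control 4R. The controls were further apart (0.62 on the log2 scale) than the groups, whose log2 fold change was -0.19 ± 0.26, and Rdh14 turned to 0.12 without control 4R. Its fold of 0.879 had the interval 0.578 to 1.34. Dhrs3 codes for a retinal reductase that lowers the supply for retinoic acid and in the retina is known from cones. The gene, on chromosome 4 (144892827 to 144928209), had 2689 and 2718 normalized counts in STZ 2L and STZ 4R, against 2724 and 3287 in control 2L and control 4R. The STZ libraries lay just below control 2L, by less than the controls differed from each other. Dhrs3 had a log2 fold change of -0.15 ± 0.16 (fold 0.904, 0.698 to 1.17) and was at -0.01 without control 4R.

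The transporter and the carriers were near the control level. ABCA4 flips retinal conjugated to a lipid across the disc membrane. Abca4 (chromosome 3, 122044443 to 122180123) had 53084 and 66833 normalized counts in STZ 2L and STZ 4R, against 56604 and 57597 in control 2L and control 4R. The STZ libraries lay on either side of the controls, so the sign depends on which STZ library is kept: the log2 fold change was 0.06 ± 0.21 with all, 0.23 without STZ 2L and -0.11 without STZ 4R. Rbp3 (chromosome 14, 33954003 to 33964216), the gene of the matrix carrier IRBP, had 274437 and 308825 normalized counts in STZ 2L and STZ 4R, against 313645 and 289372 in control 2L and control 4R. The groups overlapped, at a log2 fold change of -0.05 ± 0.30 and a fold of 0.966 (0.603 to 1.55). This standard error rests partly on other genes of similar level, and was 0.19 with robust moderation and 0.17 in limma-voom. Rbp3 itself differed by 0.17 between the STZ libraries and by 0.12 between the controls on the log2 scale. Rlbp1 (chromosome 7, 79374870 to 79387048), whose product CRALBP binds 11-cis-retinoids, had 13175 and 14539 normalized counts in STZ 2L and STZ 4R, against 14959 and 15256 in control 2L and control 4R. Both STZ libraries were below both controls, by a log2 fold change of -0.13 ± 0.16 and a fold of 0.916 (0.711 to 1.18), and Rlbp1 stayed below 0 with any library left out (-0.20 to -0.06).

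**Figure D3:**
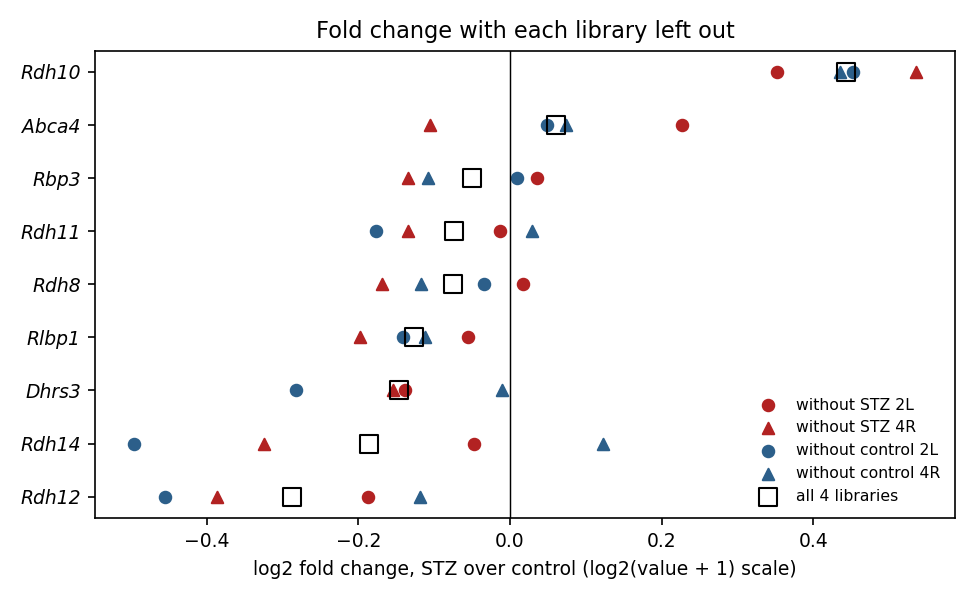
Log2 fold change of STZ over control for the 9 genes with all 4 libraries (open squares) and with each library left out (red for an STZ library, blue for a control; circles 2L, triangles 4R). Rdh10 stays between 0.35 and 0.54, Rdh12, Rlbp1 and Dhrs3 stay below 0, and the other 5 cross 0 with at least 1 library left out.

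The larger difference within a group exceeded the absolute log2 fold change for 8 of the 9 genes, all except Rdh10. The share of all tested genes for which this held was not counted. Between the STZ libraries the median absolute difference was 0.18 for the 9 genes and 0.28 for all tested genes. Between the controls it was 0.12 and 0.25. STZ 2L lay below STZ 4R in 8 of 9 genes, again all except Rdh10, by a median of 0.17 on the log2 scale, beside a median difference of 0.00 over all tested genes. Summed rod markers moved the same way, at 3430690 and 4307791 in STZ 2L and STZ 4R, against 3949694 and 4158360 in control 2L and control 4R, and their part was not tested. Among the controls, 2L was below 4R in 6 of 9 genes, by a median of 0.03. The gap between the STZ libraries was widest in Abca4, with STZ 2L 0.33 below STZ 4R on the log2 scale, and that between the controls in Rdh14, with control 2L 0.62 below control 4R.

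Profiles over the 4 libraries were most alike for Rbp3 and Rdh8, both made in photoreceptors, whose values centred on each gene's mean differed by a root mean square of 0.02 on the log2 scale. Next came Rlbp1 with Rdh8 (0.05), Rdh11 with Dhrs3 (0.06) and Abca4 with Rbp3 (0.09). Rdh12 was nearest to Dhrs3 (0.10) and Rdh14 to Rdh12 (0.11). Rdh10 was the least like the others, with 0.26 to the nearest of them, Abca4. Over all tested genes the profiles nearest to Rdh10 were those of Gm5457, a predicted gene (0.01), Smarcc1, a chromatin remodelling subunit (0.02), and Gpr21, an orphan receptor (0.03). These values describe likeness over 4 libraries only. Gm5457 had 26.2 to 38.0 normalized counts and Gpr21 30.2 to 44.3, so few that counting error is large beside such small differences. Their log2 fold changes were 0.42 ± 0.48 and 0.44 ± 0.45. Smarcc1 had 1289 and 1148 normalized counts in STZ 2L and STZ 4R, against 881 and 902 in control 2L and control 4R, a log2 fold change of 0.45 ± 0.17 (limma, adjusted p = 0.999).

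Ratios of 2 genes within a library do not depend on how libraries were scaled, and were added after the values were seen. Per 1000 normalized counts of Rbp3, Rdh10 had 4.93 and 3.86 in STZ 2L and STZ 4R, against 2.99 and 3.21 in control 2L and control 4R. Per 1000 of Rlbp1, Rdh10 had 103 and 82.0 in the STZ libraries, against 62.8 and 60.9 in the controls. Both ratios were higher in both STZ libraries, and the part of tissue makeup in them was not tested. Rdh12 had 51.9 and 52.9 per 1000 of Rbp3 in STZ 2L and STZ 4R, against 52.8 and 72.3 in control 2L and control 4R, so its groups overlapped by this measure and control 4R stood apart. They also overlapped per 1000 of Rdh8. Per 1000 of Rdh11 they did not, at 8787 and 9273 in the STZ libraries, against 10002 and 10942 in the controls. Per 1000 of Rbp3, Rdh8 had 9.25 and 9.35 in the STZ libraries, against 9.36 and 9.58 in the controls, and Abca4 193 and 216, against 180 and 199. Of the 8 ratios to Rbp3, 6 overlapped between the groups and Rdh10 and, by a small margin, Rdh8 did not. The share of all tested genes whose ratio to Rbp3 overlapped was not counted, so this count has no background beside it.

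Among partners of the cycle outside these 9 genes, the cone opsins were lower in both STZ libraries than in both controls, without passing. Opn1sw had 14230 and 13201 normalized counts in STZ 2L and STZ 4R, against 19217 and 16409 in control 2L and control 4R, a log2 fold change of -0.37 ± 0.17, and Opn1mw 4735 and 4986, against 5857 and 6472, at -0.34 ± 0.15 (limma, adjusted p = 0.999 for both). Of the 6 opsins 5 were tested, with 0 past an adjusted or unadjusted p of 0.05. Summed cone markers were 74615 and 78796 in the STZ libraries, against 94561 and 86358 in the controls. All 12 had a log2 fold change below 0, beside 51.1% of all tested genes. Both STZ libraries were below both controls for 7 of the 12, beside 14.3% of all tested genes. In limma 0 of the 12 passed, and 2 were lower at an unadjusted p under 0.05, beside 0.447% of all tested genes.

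Genes of the cycle's steps in the pigment epithelium had their lowest values in control 2L. Rpe65, the isomerase, had 432 and 455 normalized counts in STZ 2L and STZ 4R, against 117 and 537 in control 2L and control 4R. It stood at 0.82 ± 0.58 on the log2 scale, and at -0.28 without control 2L. Lrat, which makes retinyl esters, and Rdh5, the 11-cis-retinol dehydrogenase, had the same shape, at 0.63 ± 0.58 and 0.77 ± 0.52, and at -0.38 and -0.15 without control 2L. Rgr, a retinal-binding opsin of pigment epithelium and Müller glia, stood at 0.70 ± 0.37, at 0.04 without control 2L, and at 0.80 without STZ 4R, where it passed (limma, adjusted p = 0.0168, up to 1.00 with another library left out). Of the 9 genes of this list all were tested, 0 passed and 7 were above 0. Its median log2 fold change was 0.64, beside -0.01 for all tested genes.

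**Figure D4:**
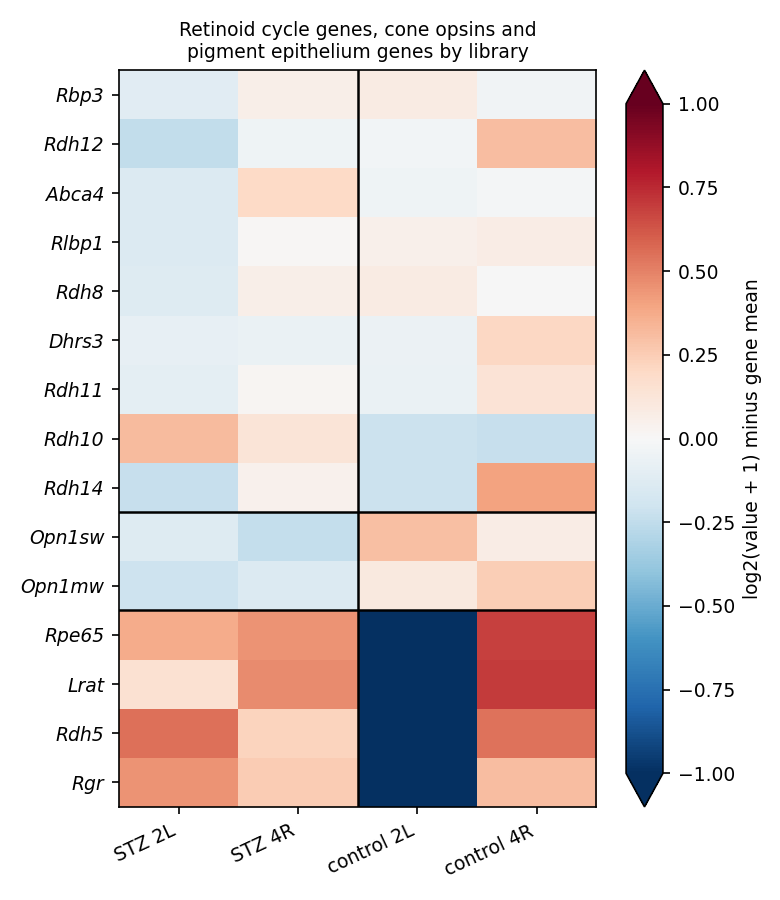
Log2(normalized count + 1) minus the gene's mean over the 4 libraries, by library (columns, STZ left, control right), for the 9 genes (top block), 2 cone opsins (middle) and 4 genes of the pigment epithelium's part of the cycle (bottom); colours stop at -1 and 1. Rpe65, Lrat, Rdh5 and Rgr are between -1.50 and -1.01 in control 2L, a column in which the 9 genes lie between -0.22 and 0.08.

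No related enzyme passed the adjusted threshold in limma with all 4 libraries. Of 16 other dehydrogenases of the same superfamily 9 were tested, with 0 past an adjusted or unadjusted p of 0.05, 3 in both STZ libraries below both controls (beside 14.3% of all tested genes) and a median log2 fold change of -0.07. Rdh13, a mitochondrial member, had 975 and 1116 normalized counts in STZ 2L and STZ 4R, against 1046 and 1091 in control 2L and control 4R, and stood at -0.03 ± 0.17. Of 7 enzymes of retinyl esters and carotenoids 6 were tested, also with 0 by either threshold, and a median of -0.13. Degs1, a desaturase proposed as a retinol isomerase of Müller glia, had 2747 and 2235 in the STZ libraries, against 2412 and 2757 in the controls (-0.06 ± 0.17). Of 14 retinoic acid genes, all tested, 0 passed and 2 had an unadjusted p under 0.05 (beside 2.76% of all tested genes), Aldh1a1 and Aldh1a3, whose enzymes oxidise the retinal that RDH10 makes. Aldh1a1 had 3307 and 1662 normalized counts in STZ 2L and STZ 4R, against 1022 and 1296 in control 2L and control 4R, a log2 fold change of 1.03 ± 0.30, which was 0.53 without STZ 2L and 1.52 without STZ 4R (limma, adjusted p = 1.9e-09 there and up to 1.00 with another library left out). Aldh1a3 had 109 and 40.5, against 17.1 and 23.1 in the controls, at 1.69 ± 0.57, which was 0.99 without STZ 2L and 2.39 without STZ 4R (limma, adjusted p = 0.00766 there and up to 1.00 otherwise). STZ 2L is the library with the lens reads, and Aldh1a1 is also known from cornea and lens; the part of those tissues was not tested.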

How the data were processed

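Polyadenylated RNA of 4 retina libraries was sequenced. Per the labels' protocols, Torrent Suite 5.4.0 aligned reads to mm10 by STAR, then Bowtie2 for those left unmapped, and HTSeq and Picard gave gene counts. For the annotation, strand setting and comparison tool, the sources used here name none, so overlapping or closely related genes may share reads. The authors deposited, as a signal, normalized counts (each library's read counts over its own size factor) and their mean; 100% of the values were whole multiples of 1 read (within 0.01 reads), so reads were recovered. The authors' deposited table also held log2 fold changes with errors, a test score (fold change over its error) and p-values with adjusted p-values. The 2L columns each fit 1 sample's labels; the 4R columns name a group but no sample (the labels give 4L), and served as that group's other replicate. The column names say 8 weeks, and the ages used here are the protocols'.

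Limma 3.58.1 (R 4.3.3) tested log2(value + 1) for treatment alone, two-sided, with a prior that follows the mean level (6.17 degrees of freedom added to 2) and Benjamini-Hochberg adjustment over all tested genes at 0.05. Alternatives used edgeR 4.0.16, DESeq2 1.42.0 and limma-voom on the recovered reads. The tests were also run on simulated counts with planted changes much larger than those of the 9 genes. That run cannot tell the power of the tests for differences as small as these. Levels per kilobase used the union of basic GENCODE M21 exons, an annotation the authors may not have used. The members and lists were chosen with earlier results of these data known. Named genes were the 9 members, 10 pathway genes named whatever their values, and the nearest profiles; other genes named by that choice are left out here. Lists of endothelial and microglial markers (medians 0.05 and -0.01) were also read.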

Additional observations from a re-analysis of the deposited data

How the results depend on the processing

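The count of 0 genes past an adjusted p of 0.05 became 13 with no filter on low values, 3 with robust moderation of limma and 47 with DESeq2 on the recovered reads of the same 18127 genes, a fit chosen after seeing the data; DESeq2 with no filter on low values, which changes tool and filter together, gave 52; the count was 0 with TMM scaling, quantile normalization, either rod marker scaling, a filter at 50, pseudocounts of 0.5 and 5, edgeR and limma-voom. Leaving out 1 library gave 11 to 611 genes, 611 of them without STZ 4R, but a lone library is then assumed to vary like the other group. None of the 9 retinoid cycle genes passed in any of these fits (0 each). With the column tag as a replicate block 0 genes and 0 of the 9 passed (476 higher and 155 lower at an unadjusted p under 0.05); deviations of same-tagged libraries correlated at 0.10 over genes, which is too little to call them pairs, and the 4R columns match no numbered sample.

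Signs turned as follows, all in values that passed no test, and the cause was not tested. Scaled to summed rod markers, Rdh8 stood at 0.00048, Rdh11 at 0.0022, Rbp3 at 0.027, Rdh13 at 0.042 and Degs1 at 0.018; scaled to their geometric mean, at 0.031, 0.033, 0.058, 0.072 and 0.049. Abca4 was -0.074 after quantile normalization. With 1 library left out, Rdh8 ranged from -0.17 to 0.017, Rbp3 from -0.13 to 0.036, Abca4 from -0.11 to 0.23, Rdh11 from -0.18 to 0.029, Rdh14 from -0.50 to 0.12, Rdh13 from -0.13 to 0.063, Degs1 from -0.21 to 0.091, Rpe65 from -0.28 to 1.91, Lrat from -0.38 to 1.64 and Rdh5 from -0.15 to 1.70. Rdh10 stayed between 0.44 and 0.55 under the 14 other settings and between 0.35 and 0.54 with a library left out. Reads per library numbered 319 to 554 for Rdh14 and at least 826 for each of the other 8 genes, and whether depth or the 2 libraries a group limited the comparison was not tested.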
